A study of Sus scrofa with 3 samples.

Results

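Immediate-early transcription factors, Krüppel-like factors (KLFs) and dual-specificity phosphatases (DUSPs) were compared across 3 pig cell populations. The members were taken by symbol from the rows of the deposited count tables. They comprised every row named KLF, DUSP or EGR1 to EGR4 with a number, the NR4A receptors, and a fixed set of early-response genes: FOS, FOSB, FOSL1, FOSL2, JUN, JUNB, JUND, ATF3, IER2, IER5, MYC, SRF, BTG1 and BTG2. Of 26466 gene symbols, 60 were members, among them 17 KLFs, 23 DUSPs, 8 genes of the AP-1 and ATF3 group, 4 EGRs, 2 NR4A receptors and 6 others. NR4A1 and KLF18 had no row under those symbols and were not analysed here.

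The study set mesenchymal stem cells derived from bone marrow (BM-MSC) and bone marrow attached cells (BMAC) beside peripheral blood mononuclear cells (PBMC), all from Sus scrofa. BM-MSC are the stromal cells of marrow, and PBMC are the lymphocytes and monocytes of blood. The labels give no breed, age, treatment or time for any population, and do not say whether the 3 populations came from the same animal. Total RNA was sequenced from its 3' ends (Lexogen QuantSeq, 500 ng of RNA, Trizol extraction), with 1 library per population.

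Immediate-early genes are transcribed within minutes of a growth factor, stress or cytokine signal, without new protein synthesis. The kinases ERK, JNK and p38 activate factors that are already present, among them SRF and CREB, and these switch on FOS, JUN, EGR and NR4A genes. DUSPs of the MAP kinase phosphatase type are themselves induced and remove the phosphates from the kinases, which closes the loop. KLFs are zinc-finger proteins that bind GC-rich and CACCC sequences. Some activate transcription, others recruit the corepressors CtBP or SIN3, and several set quiescence and differentiation of lymphocytes, monocytes and stromal cells.

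The libraries held 17069344 counts in BM-MSC, 15122997 in BMAC and 15445903 in PBMC. Levels are given as counts per 1000000 (CPM). At these depths 10 CPM corresponded to 171, 151 and 154 counts in BM-MSC, BMAC and PBMC, and 3 counts to 0.176, 0.198 and 0.194 CPM. The sums of the stromal and leukocyte markers followed the labels. The 6 stromal markers, collagens among them, summed to 13126 CPM in BM-MSC and 10873 in BMAC, against 52 CPM in PBMC. THY1, 1 of the 6, had 364, 69.8 and 48.7 CPM in BM-MSC, BMAC and PBMC, and so held most of the PBMC sum. It was 1.43-fold (1.3 to 1.58) higher in BMAC than in PBMC, and 5.22-fold (4.89 to 5.57) higher in BM-MSC than in BMAC. The 8 leukocyte markers summed to 7.73 CPM in BM-MSC and 19.9 in BMAC, against 4810 CPM in PBMC. CD3D and NKG7 had 0 counts in BM-MSC, CD3D and MS4A1 had 0 counts in BMAC, and PTPRC, the pan-leukocyte surface phosphatase, stood at 1.11, 1.85 and 2884 CPM in BM-MSC, BMAC and PBMC. CD14, a monocyte surface receptor, was the 1 leukocyte marker above 10 CPM in a marrow population, with 3.63 CPM in BM-MSC and 17.3 in BMAC, against 12.9 CPM in PBMC. The 4 platelet and erythroid markers summed to 48.3, 35.5 and 37.6 CPM in BM-MSC, BMAC and PBMC, of which GP9, whose row overlaps RAB43, held 45.7, 34.1 and 18.2 CPM. The other 3 were highest in PBMC, and HBB had 0 counts in both marrow libraries. The 4 endothelial markers summed to 18.1, 31.5 and 152 CPM, of which PECAM1, also made by leukocytes and platelets, held 15.2, 27.7 and 145 CPM. The part of these other cell types in the member values was not tested, and in whole-population RNA fewer cells of a type cannot be told apart from less RNA per cell.

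With 1 library per population no difference below has a replicate check, and no test was run. A member was measured in a comparison when its higher library reached 10 CPM and 10 counts. It was called higher or lower when log2((CPM + 1)/(CPM + 1)) was at least 2 in size, a 4-fold difference after adding 1 CPM. Folds in the text are ratios of CPM without that addition, and the ranges in parentheses are 95% exact intervals that cover counting error only. The counts come from a stretch near the 3' end and were not scaled by length, so levels are compared between libraries for 1 gene at a time. Shares of a family sum describe counts, not transcripts per gene.

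In BM-MSC against PBMC, 40 members were measured, 7 were called higher and 4 lower. The background over all 11428 genes measured was 14.3% higher and 15.7% lower, and the member shares of 17.5% and 10% were near it. In BMAC against PBMC, 37 members were measured, with 8 higher and 5 lower, or 21.6% and 13.5%, beside backgrounds of 14.0% and 12.8% over 11371 genes. In BM-MSC against BMAC, 37 members were measured, with 1 higher and 1 lower, 2.7% each, beside backgrounds of 2.90% and 3.21% over 10303 genes. Shares this close to the background are not a result about the set as a whole, and what follows describes which members differed. The median log2 ratio of the measured members was 0.48 in BM-MSC against PBMC, where all genes had −0.16. It was 0.17 in BMAC against PBMC, where all genes had −0.12. Of all genes called, 47.6% were higher in BM-MSC and 52.3% in BMAC than in PBMC, and 59.5% and 60.3% when libraries were scaled by the median of gene ratios. That scaling moved the all-gene medians to 0.26 and 0.22, and gave 10 members higher and 3 lower in BM-MSC against PBMC.

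Both comparisons with blood used the same PBMC library. Of the 41 members that reached 10 CPM in at least 1 library, 22 did so in all 3 libraries, and 17 were called in at least 1 comparison. BTG2, DUSP3, EGR1, FOSL1, KLF10 and KLF4 were called higher in BM-MSC and in BMAC than in PBMC, and DUSP2 and KLF13 were called lower in both. With a pseudocount of 5 CPM, only EGR1 and KLF13 among these kept both calls. All 7 calls higher in BM-MSC than in PBMC, and 7 of the 8 higher in BMAC than in PBMC, were of members that reached 10 CPM only in the marrow library; the exception was NR4A2. Likewise all 5 calls lower in BMAC than in PBMC, 2 of the 4 lower in BM-MSC than in PBMC (DUSP2 and KLF13), and both calls between the marrow libraries were of members that reached it only in the higher library. Entry only through the high library favours a difference without fixing it. EGR2, at 10.5 CPM in BM-MSC and 5.83 in PBMC, entered in that way and was not called. Over all genes, 78.2% and 77.3% of the calls higher in BM-MSC and in BMAC than in PBMC were of genes above the floor only in the higher library. The same held for 66.1% and 73.2% of the calls lower. The highest library was BM-MSC for 13 of the 41 members, BMAC for 12 and PBMC for 16, or 31.7%, 29.3% and 39%, beside 28.5%, 25.5% and 46% of all 11861 genes above the floor.

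**Figure D1:**
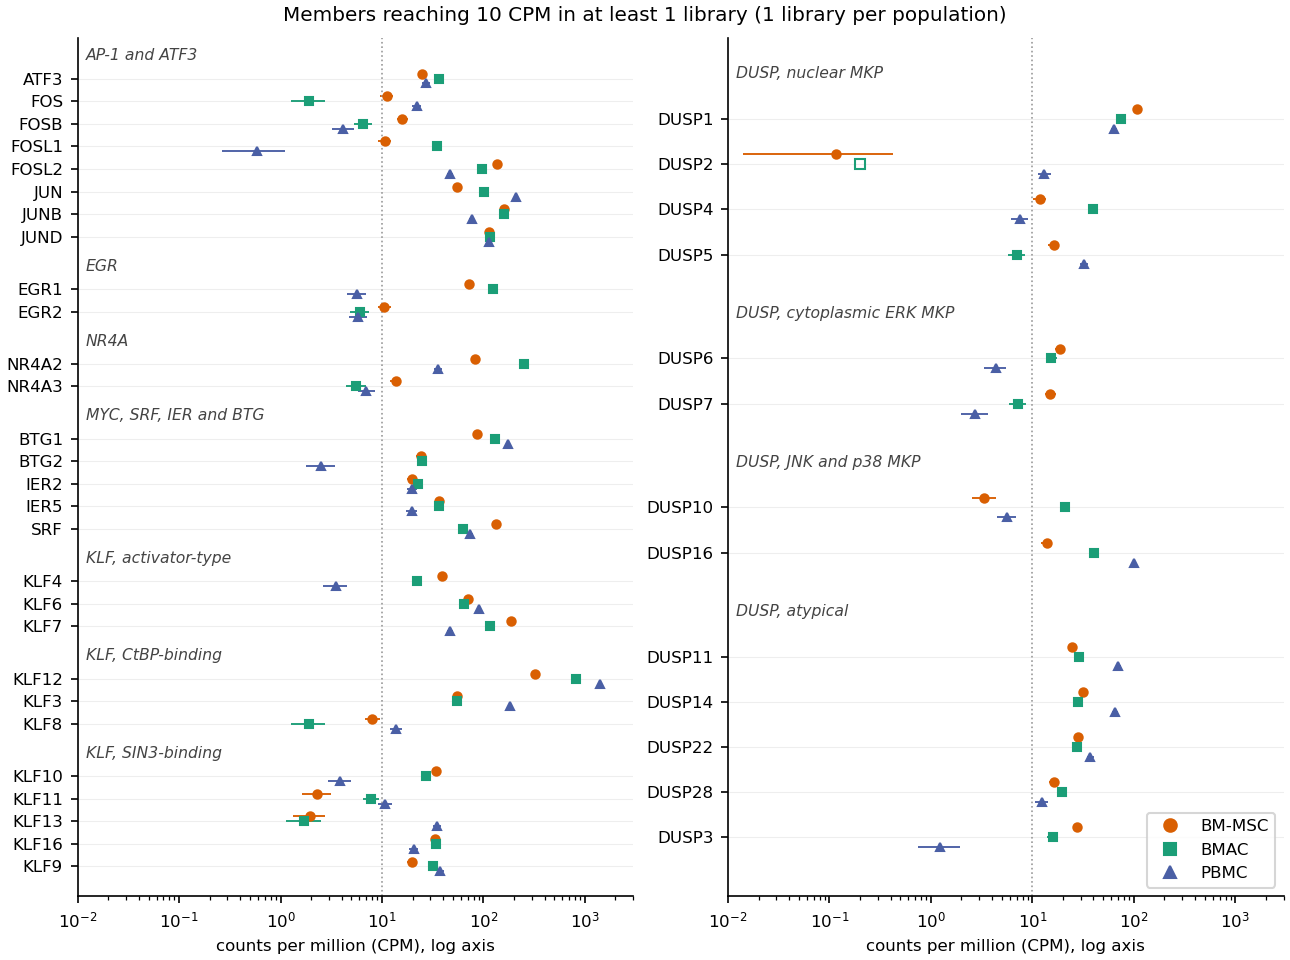
CPM on a log axis of the 41 members that reached 10 CPM (dotted line) in at least 1 library, by role group, with 95% Poisson intervals for counting error and an open square at the 3-count bound where the count was 0. FOSL1, EGR1, NR4A2, KLF4, KLF10, BTG2 and DUSP3 lie highest in a marrow library, whereas KLF12, KLF13, DUSP2 and DUSP16 lie highest in PBMC.

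**Figure D2:**
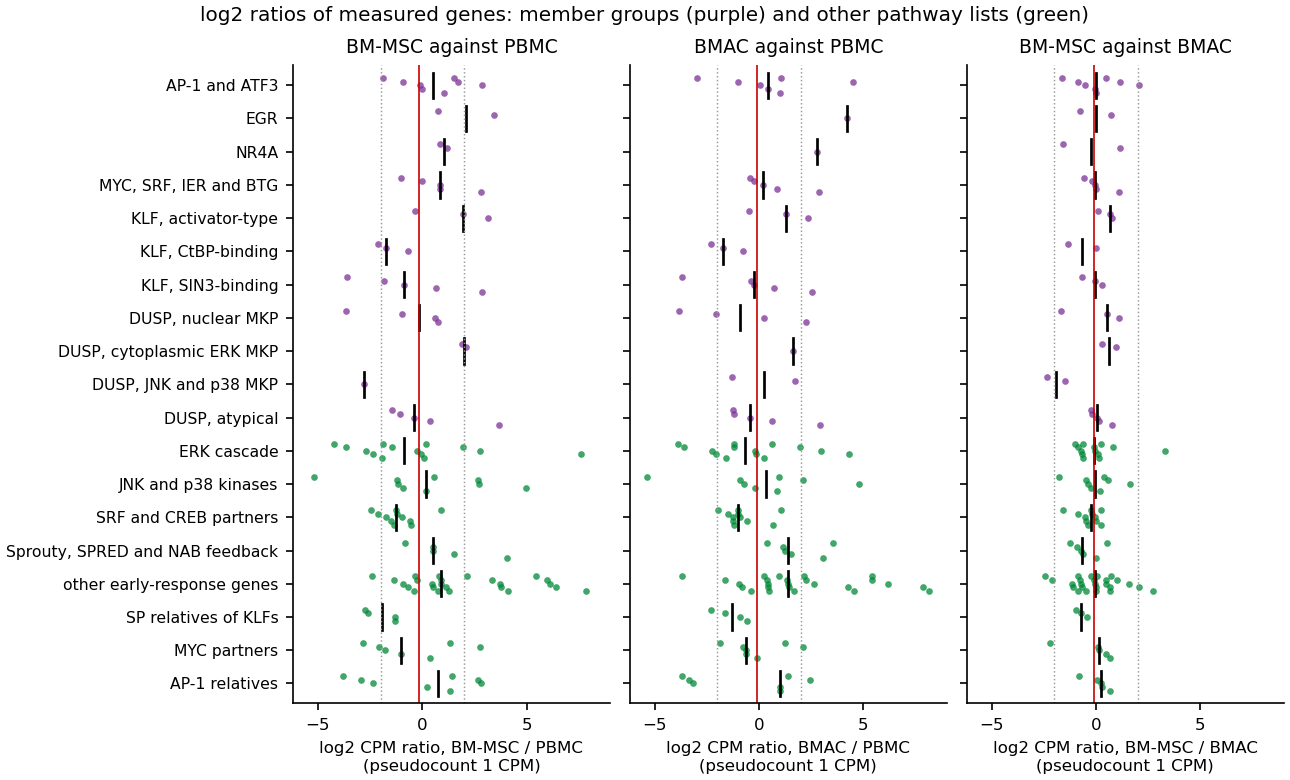
Log2 ratio of each measured member by role group (purple) and of measured genes of other pathway lists (green) for the 3 comparisons. Black marks the median of each group or list, a red line the median of all measured genes, and dotted lines the 4-fold rule. The KLF and DUSP families each hold members on both sides of 0, though some role groups do not. The CtBP-binding KLFs all lie below 0 in both comparisons with PBMC. Nearly all points lie between the dotted lines in BM-MSC against BMAC.

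The 8 AP-1 and ATF3 genes encode leucine-zipper proteins that pair with each other and bind the same short DNA element. Scaled by library totals, their counts together were similar in size in the 3 libraries, 526 CPM in BM-MSC and 553 in BMAC, against 498 CPM in PBMC. The ratio of the sums to PBMC was 1.06 in BM-MSC and 1.11 in BMAC, and became 1.35 and 1.36 with median-of-ratios scaling. The genes that supplied the counts differed between libraries. JUN made up 10.4% of the sum in BM-MSC, 18.3% in BMAC and 41.5% in PBMC. JUNB supplied 30.2%, 28.8% and 15.3%, and FOSL2 supplied 25.7% in BM-MSC and 17.3% in BMAC. JUND, which is made in most cells without a stimulus, kept a share of 21.7% in BM-MSC, 21.1% in BMAC and 22.9% in PBMC.

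FOSL1, whose product Fra-1 is a FOS relative known from migrating and matrix-producing cells, gave the widest difference of the group. It stood at 10.7 CPM in BM-MSC and 35 in BMAC, against 0.583 CPM in PBMC, 9 counts in the last. The level was 18.3-fold (9.43 to 40.7) higher in BM-MSC and 60.1-fold (31.4 to 132) higher in BMAC than in PBMC. Between the marrow populations it was 3.29-fold (2.77 to 3.91) lower in BM-MSC, short of the call. FOS, the partner of JUN in the classical early response, had 11.1 CPM in BM-MSC and 1.92 in BMAC, against 22.1 CPM in PBMC. BMAC stood apart as the low library for FOS: the level was 11.5-fold (7.87 to 17.5) lower in BMAC than in PBMC, and 5.8-fold (3.91 to 8.9) higher in BM-MSC than in BMAC. In BM-MSC against PBMC it was 1.98-fold (1.66 to 2.38) lower and was not called.

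The other 6 members of the group were called in no comparison. JUN had 54.9 CPM in BM-MSC and 101 in BMAC, against 207 CPM in PBMC, and the BM-MSC level, 3.77-fold (3.5 to 4.05) below PBMC, came close to the rule. FOSL2 ran the other way, with 135, 95.7 and 46.7 CPM in BM-MSC, BMAC and PBMC. JUNB, which often restrains JUN, had 159 CPM in both marrow libraries and 76.5 CPM in PBMC. FOSB had 15.9, 6.55 and 4.14 CPM in BM-MSC, BMAC and PBMC, and reached the floor of 10 CPM in BM-MSC alone. With libraries scaled by totals, JUND differed least, at 114 CPM in BM-MSC and 117 in BMAC, against 114 CPM in PBMC. Its ratio in BM-MSC against PBMC was 1 (0.938 to 1.07), a range that leaves out the choice of scaling. ATF3, a stress-induced factor, had 25 CPM in BM-MSC and 36.8 in BMAC, against 27.2 CPM in PBMC, and its order in BM-MSC against PBMC turned with the scaling.

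EGR1, a zinc-finger factor that SRF and the ERK-activated ELK proteins switch on, was high in both marrow libraries. It had 72.6 CPM in BM-MSC and 123 in BMAC, against 5.7 CPM in PBMC. The level was 12.7-fold (10.3 to 16) higher in BM-MSC and 21.6-fold (17.5 to 27.1) higher in BMAC than in PBMC. EGR2 had 10.5 CPM in BM-MSC and 6.02 in BMAC, against 5.83 CPM in PBMC, and its row overlaps that of ADO, so its value is uncertain. EGR3 had 1.82 CPM in BM-MSC, 0 counts in BMAC and 0.388 CPM in PBMC. EGR4 had 0.352 CPM in BM-MSC and 0 counts in BMAC and PBMC.

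NR4A2, an orphan nuclear receptor induced by cyclic AMP and prostaglandin signals, stood highest in BMAC, with 82 CPM in BM-MSC and 251 in BMAC, against 35.5 CPM in PBMC. It was above the floor in all 3 libraries. The BMAC level was 7.09-fold (6.48 to 7.77) above PBMC, whereas the BM-MSC level was 2.31-fold (2.09 to 2.56) above PBMC and 3.07-fold (2.88 to 3.26) below BMAC, neither of which passed the rule. NR4A3 differed from NR4A2 in its order of libraries, with 13.7 CPM in BM-MSC and 5.55 in BMAC, against 6.99 CPM in PBMC. The EGR and NR4A genes together summed to 181 CPM in BM-MSC and 386 in BMAC, against 54.4 CPM in PBMC. Of the 4 of them measured in BM-MSC against PBMC, 1 was called higher and 0 lower, with a median log2 ratio of 1.03. In BMAC against PBMC 2 were measured, EGR1 and NR4A2, and both were called higher. The backgrounds over all genes were 14.3% higher and 15.7% lower in BM-MSC, and 14.0% and 12.8% in BMAC. EGR2, at 6.02 CPM in BMAC and 5.83 in PBMC, and NR4A3, at 5.55 and 6.99 CPM, fell below the floor there. EGR1 entered that comparison only through BMAC.

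Of MYC, SRF, IER2, IER5, BTG1 and BTG2, only BTG2 was called in a comparison. BTG2, a p53-inducible gene whose product slows proliferation and promotes mRNA decay, had 24.1 CPM in BM-MSC and 24.7 in BMAC, against 2.52 CPM in PBMC. It was 9.54-fold (6.86 to 13.6) higher in BM-MSC and 9.77-fold (7.01 to 14) higher in BMAC than in PBMC. BTG1, its close relative, ran in the opposite direction, with 86.5 CPM in BM-MSC and 129 in BMAC, against 175 CPM in PBMC. The BTG1 row overlaps an unnamed row that held 103, 153 and 898 CPM in those libraries, so its counts are uncertain.

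SRF, the factor that binds the serum response element of FOS and EGR1, had 133 CPM in BM-MSC and 62.4 in BMAC, against 73.9 CPM in PBMC. BM-MSC was the high library, 1.8-fold (1.67 to 1.93) above PBMC and 2.13-fold (1.97 to 2.3) above BMAC. IER2, a rapidly induced nuclear protein, was the least different gene of the group, at 19.6, 22.4 and 19.7 CPM in BM-MSC, BMAC and PBMC, and the sign of its BM-MSC difference from PBMC turned with the scaling. IER5 had 36.3 CPM in BM-MSC and 36.2 in BMAC, against 19.6 CPM in PBMC. MYC stayed below the floor everywhere, with 2.23 CPM in BM-MSC and 3.5 in BMAC, against 2.33 CPM in PBMC.

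**Figure D3:**
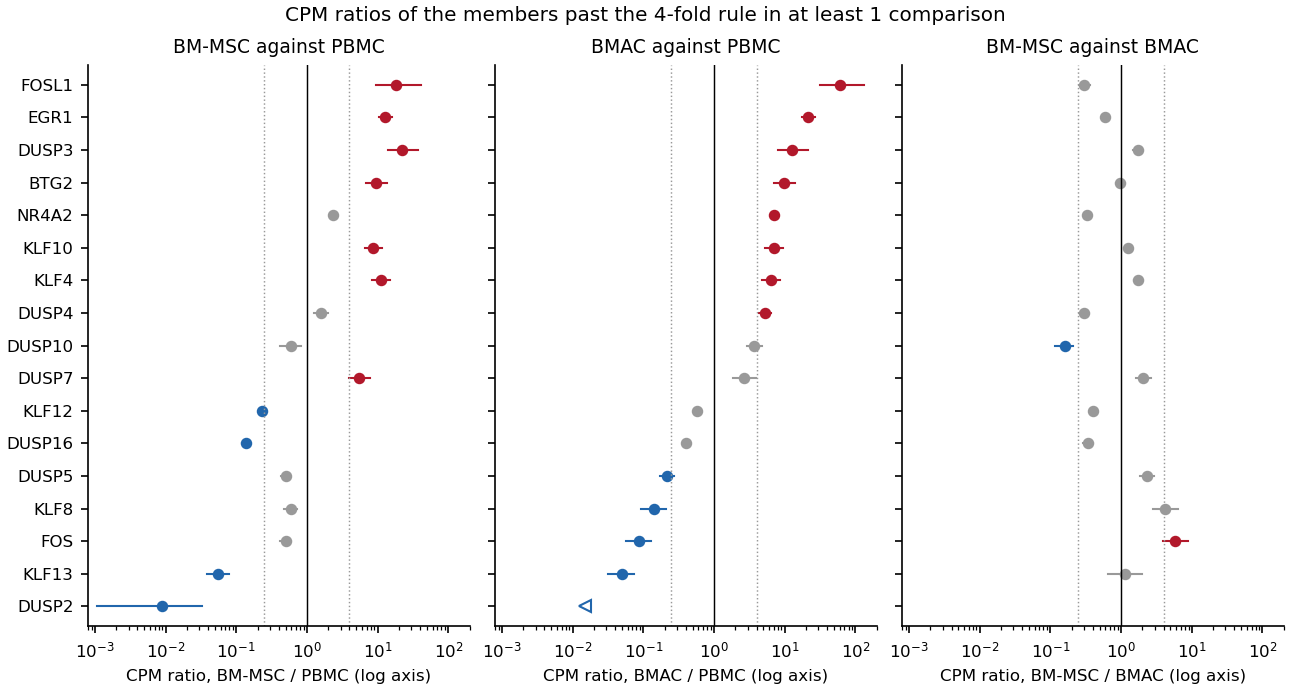
Ratio of CPM (log axis) for the 17 members called in at least 1 comparison, with 95% exact intervals for counting error, red where higher, blue where lower, grey where not past the rule or below the floor, and dotted lines at 4-fold. In both comparisons with PBMC, FOSL1, EGR1, DUSP3, KLF4, KLF10 and BTG2 lie to the right and DUSP2 and KLF13 to the left; an open triangle marks the bound for DUSP2, with 0 counts in BMAC.

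The 17 KLF rows together held 783 CPM in BM-MSC and 1179 in BMAC, against 1849 CPM in PBMC. Most of that difference lay in KLF12, a CtBP-binding repressor, which supplied 41.2% (40.4 to 42.1) of the family counts in BM-MSC, 68.8% (68.1 to 69.4) in BMAC and 75.6% (75.1 to 76.1) in PBMC. Whether reads in introns were counted is not stated in the sources used here, so it is unknown what the KLF12 counts, and the family sums and shares that rest on them, hold beyond its 3' end. Without KLF12, an alternative chosen after the data were seen, the sums were 460 CPM in BM-MSC and 368 in BMAC, against 451 CPM in PBMC. The ratio of those sums was then 1.02 (0.989 to 1.05) in BM-MSC against PBMC and 0.817 (0.789 to 0.847) in BMAC against PBMC, and became 1.31 and 1 when libraries were scaled by median of ratios in place of totals. Of 11 KLFs measured in each comparison with PBMC, 2 were called higher and 2 lower, in BM-MSC and in BMAC alike. That is 18.2% each way, beside backgrounds of 14.3% higher and 15.7% lower in BM-MSC, and 14.0% and 12.8% in BMAC. The median log2 ratio of these 11 was −0.70 in BM-MSC and −0.41 in BMAC.

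Among the activator-type KLFs, KLF4 was called in both comparisons with blood. KLF4 is known in monocytes and stromal cells and is one of the factors that reprogram cells to pluripotency. It had 38.8 CPM in BM-MSC and 22 in BMAC, against 3.5 CPM in PBMC. The level was 11.1-fold (8.41 to 14.9) higher in BM-MSC and 6.3-fold (4.71 to 8.56) higher in BMAC than in PBMC. KLF7, which gave the most counts of the activator type in both marrow libraries, stood at 186 CPM in BM-MSC and 115 in BMAC, against 47.1 CPM in PBMC. In BM-MSC against PBMC it was 3.96-fold (3.65 to 4.3) higher, just short of the rule. KLF6, which is induced in injured stromal tissue, differed little, with 69.8, 64.7 and 90.5 CPM in BM-MSC, BMAC and PBMC.

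The activator-type genes KLF1, KLF2 and KLF5 did not reach the floor in any library. KLF2, which keeps naive T cells quiescent and is induced by flow in endothelium, had 7.56 CPM in BM-MSC and 2.25 in BMAC, against 3.88 CPM in PBMC. KLF5 had 0.703 CPM in BM-MSC and 0.132 in BMAC, against 0.388 CPM in PBMC.

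The 3 CtBP-binding KLFs were lower in both marrow libraries than in PBMC, each by its own pattern. KLF12 had 323 CPM in BM-MSC and 811 in BMAC, against 1399 CPM in PBMC. It was 4.33-fold (4.2 to 4.46) lower in BM-MSC than in PBMC, which was called, and 1.72-fold (1.69 to 1.76) lower in BMAC, which was not. The call in BM-MSC was lost under each of the 3 other scalings, with log2 ratios of −1.89 with TMM, −1.75 with median of ratios and −1.95 with totals without ribosomal RNA. KLF8 had 8.03 CPM in BM-MSC and 1.92 in BMAC, against 13.7 CPM in PBMC, and was called lower in BMAC alone, by 7.12-fold (4.82 to 10.9). KLF3, a repressor in red cells and B cells, had 54.3 CPM in BM-MSC and 54.6 in BMAC, against 184 CPM in PBMC, about equally low in both marrow libraries and not called. Its row overlaps an unnamed row of 8.44, 18 and 37 CPM.

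The SIN3-binding KLFs held the clearest opposite pair of the family. KLF13, a factor of T cells that drives late expression of the chemokine CCL5, had 1.93 CPM in BM-MSC and 1.72 in BMAC, against 34.7 CPM in PBMC. It was 17.9-fold (12.6 to 26.3) lower in BM-MSC and 20.2-fold (13.6 to 31.2) lower in BMAC than in PBMC. KLF10, an early gene of TGF-beta signalling, had 33.9 CPM in BM-MSC and 27.1 in BMAC, against 3.88 CPM in PBMC. It was 8.73-fold (6.69 to 11.6) higher in BM-MSC and 6.98-fold (5.31 to 9.31) higher in BMAC than in PBMC. KLF11, the closest relative of KLF10 and also a TGF-beta target, was low instead in BM-MSC, with 2.28 CPM there, 7.87 CPM in BMAC and 10.8 CPM in PBMC. Its 4.73-fold (3.32 to 6.89) lower level in BM-MSC than in PBMC corresponded to a log2 ratio of −1.85 after adding 1 CPM and was not called. KLF9, a glucocorticoid-induced gene, had 19.7, 31.5 and 37.6 CPM in BM-MSC, BMAC and PBMC, and KLF16 had 33, 34.1 and 20.5 CPM.

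Of the remaining KLFs, KLF15 had 3.81 CPM in BM-MSC, 5.29 in BMAC and 1 count, 0.0647 CPM, in PBMC. The ratio to PBMC was 58.8 (10.2 to 2358) in BM-MSC and 81.7 (14.3 to 3267) in BMAC. KLF15, a glucocorticoid-responsive gene of muscle and fat, lay below the floor of 10 CPM in all 3 libraries despite the wide ratio. KLF14 had 0 counts in all 3 libraries.

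**Figure D4:**
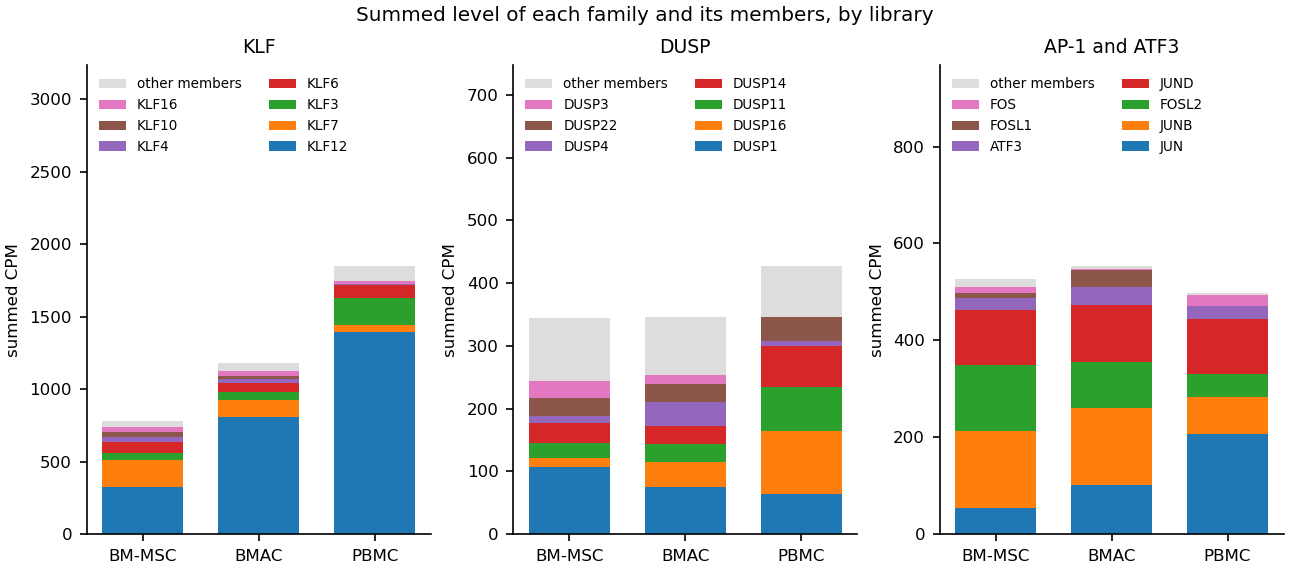
Summed CPM of the KLF rows, the DUSP rows and the AP-1 and ATF3 rows in each library, stacked by gene, with bars starting at 0. KLF12 fills most of the KLF bar in BMAC and PBMC but 41.2% in BM-MSC, and JUN fills 41.5% of the AP-1 bar in PBMC but 10.4% in BM-MSC.

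The 23 DUSP rows summed to 345 CPM in BM-MSC and 346 in BMAC, against 427 CPM in PBMC. Of 12 measured in each comparison with PBMC, 2 were called higher and 2 lower, in BM-MSC and in BMAC alike, with medians of 0.00 and −0.09. The share of 16.7% each way stood beside backgrounds of 14.3% higher and 15.7% lower in BM-MSC, and 14.0% and 12.8% in BMAC. The make-up differed more than the sum: DUSP1 supplied 31.1% of the family counts in BM-MSC, 21.7% in BMAC and 14.9% in PBMC, whereas DUSP16 supplied 11.6% in BMAC and 23.6% in PBMC. With median-of-ratios scaling the ratio of the DUSP sums moved from 0.809 to 1.04 in BM-MSC against PBMC and from 0.811 to 0.993 in BMAC against PBMC.

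Among the nuclear MAP kinase phosphatases, DUSP2 and DUSP5 were highest in PBMC, DUSP4 in BMAC and DUSP1 in BM-MSC. DUSP2, also called PAC-1 and known from activated T cells and myeloid cells, had 0.117 CPM in BM-MSC, 0 counts in BMAC and 13.1 CPM in PBMC, that is 2, 0 and 203 counts. It was 112-fold (30.7 to 932) lower in BM-MSC and at least 66.3-fold lower in BMAC than in PBMC. DUSP5, which acts on ERK in the nucleus, had 16.3 CPM in BM-MSC and 7.08 in BMAC, against 32.5 CPM in PBMC, and was called lower in BMAC, by 4.59-fold (3.72 to 5.71). That call was lost with TMM at a log2 ratio of −1.92, with median of ratios at −1.78, with totals without ribosomal RNA at −1.97, and with a pseudocount of 5 CPM at −1.63. DUSP4 ran against it in BMAC, with 11.8 CPM in BM-MSC and 39.3 in BMAC, against 7.51 CPM in PBMC. The BMAC level of DUSP4 was 5.23-fold (4.28 to 6.44) above PBMC, and the BM-MSC level 1.57-fold (1.24 to 1.99) above PBMC. DUSP1, the stress- and glucocorticoid-induced phosphatase of p38 and JNK, gave the most counts of the type in BM-MSC and BMAC, with 107 CPM in BM-MSC and 75.1 in BMAC, against 63.6 CPM in PBMC.

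The cytoplasmic ERK phosphatases leaned towards the marrow populations. DUSP7 had 14.9 CPM in BM-MSC and 7.21 in BMAC, against 2.72 CPM in PBMC, and was 5.49-fold (3.95 to 7.81) higher in BM-MSC than in PBMC. DUSP6, the feedback inhibitor of growth factor signalling through ERK, had 18.8 CPM in BM-MSC and 15.4 in BMAC, against 4.34 CPM in PBMC. Its ratio of 4.34 (3.32 to 5.73) in BM-MSC against PBMC became a log2 ratio of 1.89 after adding 1 CPM, and it was not called. These 2 genes and DUSP9, which had 0 counts in all 3 libraries, summed to 33.7 CPM in BM-MSC and 22.6 in BMAC, against 7.06 CPM in PBMC.

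Of the phosphatases that prefer JNK and p38, DUSP16 was highest in blood, with 13.8 CPM in BM-MSC and 40.3 in BMAC, against 101 CPM in PBMC. It was called lower in BM-MSC than in PBMC, by 7.28-fold (6.35 to 8.39), and was 2.5-fold (2.27 to 2.75) lower in BMAC. DUSP10 was highest in BMAC instead, with 3.34 CPM in BM-MSC and 21 in BMAC, against 5.63 CPM in PBMC. Its BMAC level was 3.72-fold (2.93 to 4.77) above PBMC. The DUSP10 row overlaps an unnamed row with 2.64, 12.6 and 2.59 CPM in BM-MSC, BMAC and PBMC, also highest in BMAC, so the value is uncertain. DUSP8 stayed below the floor, with 4.45, 2.71 and 0.647 CPM in BM-MSC, BMAC and PBMC.

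The atypical DUSPs lack the kinase-binding domain of the others. DUSP3, or VHR, a small phosphatase of ERK and JNK, had 27.6 CPM in BM-MSC and 15.8 in BMAC, against 1.23 CPM in PBMC. It was 22.4-fold (14.2 to 37.6) higher in BM-MSC and 12.8-fold (8.05 to 21.7) higher in BMAC than in PBMC. DUSP11, which removes phosphates from RNA ends, had 24.8, 28.6 and 70.3 CPM in BM-MSC, BMAC and PBMC, and was not called. DUSP14, DUSP22 and DUSP28 were likewise measured and called in no comparison; DUSP22, a brake on T cell receptor signalling, had 28.4, 27.5 and 37.2 CPM. DUSP14 overlaps SYNRG and DUSP22 overlaps an unnamed row. The other 8 atypical rows were below 10 CPM in all 3 libraries, among them DUSP12 with 8.49 CPM in BM-MSC and 4.5 in BMAC, against 2.27 CPM in PBMC. The DUSP12 row overlaps an unnamed row with 9.84, 5.03 and 2.01 CPM in BM-MSC, BMAC and PBMC, so its value is uncertain. DUSP18 overlaps SLC35E4, and DUSP23 overlaps an unnamed row.

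In BM-MSC against BMAC, 26 of the 37 measured members, or 70.3%, lay within 2-fold, a smaller share than the 80.7% of all genes measured in that comparison. The 2 calls were FOS, higher in BM-MSC, and DUSP10, lower in BM-MSC by 6.28-fold (4.72 to 8.48). Nearest below the rule on the lower side were DUSP4 and FOSL1, with log2 ratios of −1.66 and −1.63, and on the higher side NR4A3 and FOSB, both with 1.16. BMAC was the higher marrow library for EGR1, NR4A2, FOSL1, DUSP4 and DUSP10, and BM-MSC for FOS, FOSB, NR4A3, DUSP5 and DUSP7. Among the 8 measured KLFs the marrow libraries differed most in KLF12, which was 2.51-fold (2.43 to 2.59) lower in BM-MSC than in BMAC. None of those KLFs was called there.

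**Figure D5:**
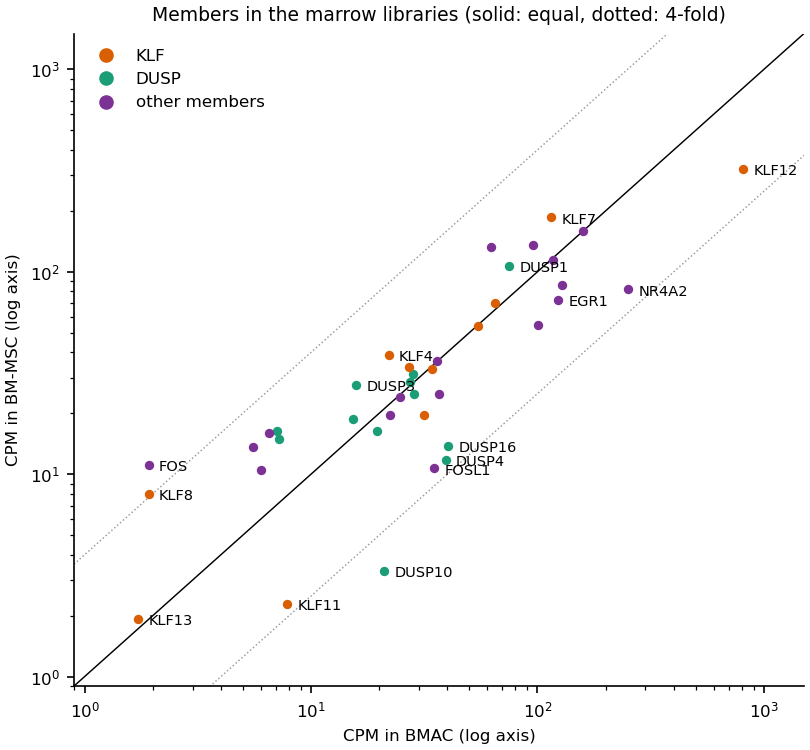
CPM of 40 members in BMAC (horizontal log axis) and BM-MSC (vertical log axis), with the line of equality and 4-fold lines; DUSP2 is left out because its count was 0 in BMAC. Most points lie near the line, FOS lies above it, and DUSP10, DUSP4, FOSL1 and NR4A2 lie below it.

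Near the threshold, the members just past the rule in BM-MSC against PBMC were DUSP7 with a log2 ratio of 2.10 and KLF12 with −2.11, and those just short of it were KLF7 with 1.96 and JUN with −1.89. In BMAC against PBMC, DUSP4 with 2.24 and DUSP5 with −2.05 were just past it, and DUSP10 with 1.73 and KLF3 with −1.74 just short of it.

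Of 106 further genes of the pathways around the members, 83 were measured in BM-MSC against PBMC, with 19 called higher and 15 lower, and 82 in BMAC against PBMC, with 18 higher and 10 lower. The background for these and the lists below is again 14.3% higher and 15.7% lower over all genes in BM-MSC against PBMC, and 14.0% and 12.8% in BMAC against PBMC. The list of 25 other measured early-response genes held 10 higher and 1 lower in each comparison with PBMC, with medians of 0.90 in BM-MSC and 1.38 in BMAC. That is 40% higher and 4% lower in each. Most of the genes called higher reached 10 CPM only in the marrow library, which favours a difference. Exceptions were TOB1, at 29.7 CPM in PBMC and called in BM-MSC, and CEBPD and ZFP36L1, at 92.3 and 100 CPM in PBMC and called in BMAC. The list was chosen with earlier results of these data known, so its shares are a description and not a test. IER3, a stress-induced survival gene, had 154 CPM in BM-MSC and 673 in BMAC, against 1.42 CPM in PBMC. MAFF, a small MAF factor, had 29.2, 165 and 1.29 CPM in BM-MSC, BMAC and PBMC. Both had the order of FOSL1 and NR4A2, with BMAC above BM-MSC, and were the 2 genes of the list called lower in BM-MSC than in BMAC. The 2 called higher there were GADD45A, with 77.9 CPM in BM-MSC and 10.8 in BMAC, and GADD45G, with 18.6 and 3.64 CPM. The median log2 ratio of the list in BM-MSC against BMAC was −0.04. CYR61, an SRF and YAP target, had 461 CPM in BM-MSC and 456 in BMAC, against 0.971 CPM in PBMC, and its row overlaps ZNHIT6. SGK1, a serum- and glucocorticoid-induced kinase, was the gene called lower in each comparison with PBMC, with 9.31, 3.31 and 54.1 CPM in BM-MSC, BMAC and PBMC.

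Upstream of the members, 2 of 14 measured ERK cascade genes were higher and 4 lower in each comparison with PBMC. MAPK7 was called higher in both, with 233 CPM in BM-MSC and 22.8 in BMAC, against 0.194 CPM in PBMC. Its row overlaps MFAP4, so its value is uncertain. RPS6KA5, which encodes the kinase MSK1 acting on CREB and on histone H3 at early genes, had 9.96 CPM in BM-MSC and 15.9 in BMAC, against 205 CPM in PBMC. Of 11 SRF and CREB partners, 2 were lower and 0 higher in BM-MSC against PBMC, with a median of −1.25, and 0 were called in BMAC against PBMC. CREB1 had 71.2 CPM in BM-MSC and 98.1 in BMAC, against 391 CPM in PBMC, and its coactivator CREBBP had 50.4, 91.2 and 221 CPM. Of the kinases of the JNK and p38 arms, 3 of 9 were higher and 1 lower in BM-MSC against PBMC. MAPK12 was called higher in both marrow libraries, with 37 CPM in BM-MSC and 32.2 in BMAC, against 0.194 CPM in PBMC. MAP2K6, an activator of p38, had 1.23 CPM in BM-MSC and 0.992 in BMAC, against 80.6 CPM in PBMC, while MAP2K3, the other p38 activator, had 242, 165 and 37.4 CPM. Of the Sprouty, SPRED and NAB feedback genes, 1 of 5 measured was higher and 0 lower in BM-MSC against PBMC, and 2 of 6 higher and 0 lower in BMAC against PBMC. SPRED1, a RAS pathway inhibitor, had 145 CPM in BM-MSC and 100 in BMAC, against 7.83 CPM in PBMC, and its row overlaps an unnamed one. SPRED2 had 19.7, 48.4 and 36.3 CPM in BM-MSC, BMAC and PBMC and was not called. All 4 measured SP genes, zinc-finger relatives of the KLFs, had lower values in BM-MSC and in BMAC than in PBMC, of which 2 were called in BM-MSC and 1 in BMAC. Of 8 measured AP-1 relatives 2 were higher and 3 lower in BM-MSC against PBMC. BATF, an AP-1 factor of T cells, had 0 counts in BM-MSC and 1 count in BMAC, against 13 CPM in PBMC. Of 7 measured MYC partners 1 was higher and 2 lower in BM-MSC against PBMC, and MXI1, a MAX-binding repressor, had 12.4, 61.2 and 94.1 CPM in BM-MSC, BMAC and PBMC.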

How the data were processed

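The authors deposited raw counts per gene row for 3 QuantSeq 3' end libraries, 1 per population. Bowtie2 and bedtools are named per the submitters' processing notes, without version or role. Not given in the sources used here are the genome build, annotation, strand setting and handling of multiply mapped reads. Rows of 1 symbol were summed, and CPM were taken over the library total. Ribosomal RNA rows took 15.5% of counts in BM-MSC, 11.4% in BMAC and 5.29% in PBMC and stayed in the totals. Log2 ratios of the deposited counts were taken on CPM with a pseudocount of 1. Intervals are Clopper-Pearson intervals on counts (scipy 1.17.1), and bounds against 0 use 3 counts. Alternative scalings were TMM (edgeR 4.0.16) and median of ratios (DESeq2 1.42.0). Overlapping rows were found in the RefSeq table of Sscrofa11.1 and are mentioned where they held at least 25% of a member's count in at least 1 library.

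The members, lists and size rule were chosen with earlier results of these data known. Values are given for every member past the size rule, the highest member of each role group and examples of the rest. Genes named from the other lists are examples, mostly with large ratios, and other genes with ratios as large were left out. The ratio and interval computations were tested on simulated data. Promoter and protein sequences were not analysed here.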

Additional observations from a re-analysis of the deposited data

How the results depend on the processing

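Without replicates, counting error is the only error given, and differences between animals, cultures or preparations are not covered. No paired analysis was possible because each population has 1 library. Scaling by median of ratios moved the members' median to 0.91 in BM-MSC and 0.49 in BMAC against PBMC. TMM, median of ratios and totals without ribosomal RNA each ended the calls of KLF12 in BM-MSC and DUSP5 in BMAC against PBMC and added DUSP6 and KLF7 in BM-MSC. In BM-MSC against BMAC the median stood at −0.00 and became 0.07 with TMM, 0.06 with median of ratios, 0.07 without ribosomal RNA and 0.05 with a floor of 1 CPM. A floor of 50 CPM turned the median to −0.18 in BM-MSC and −0.33 in BMAC against PBMC. That floor left 1 member higher and 2 lower in BM-MSC, 2 higher and 0 lower in BMAC, and 0 and 0 between the marrow libraries. With a floor of 1 CPM the BMAC median was 0.42. A pseudocount of 5 CPM left 4 higher and 3 lower in BM-MSC, 3 higher and 1 lower in BMAC, and 0 and 0 between the marrow libraries. It ended 4 calls in BM-MSC against PBMC: BTG2, DUSP2, DUSP7 and FOSL1. In BMAC against PBMC it ended 9: BTG2, DUSP2, DUSP3, DUSP4, DUSP5, FOS, KLF10, KLF4 and KLF8. Both calls between the marrow libraries, FOS and DUSP10, were lost. A 2-fold rule gave 13 higher and 10 lower in each comparison with PBMC, and 5 and 6 between the marrow libraries. Leaving out members that overlap another row left 0 lower in BM-MSC against BMAC, since DUSP10 was dropped. Small differences turned sign under the scalings for 9 members, each at most 0.24 in size on the log2 scale, and 0 of the 26 values of called members did.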
